A study of Mus musculus with 6 samples.

Results

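Genes of neutrophils and other myeloid cells were followed in mouse T cell leukemia cells that had been sorted for GFP. The 10 genes were Lcn2, Ngp, Camp, Ltf, Mpo, Elane, Lyz2, S100a8, S100a9 and Ly86, out of 19938 genes with a probe set of their own in the table. They were taken by symbol, each from the probe set with the highest mean, and each had 1 probe set with a single gene symbol. The 10 were chosen by their role in myeloid cells with their measured levels in the 3 leukemia lines in view, that of Ly86 in line 14846 among them. Differences between lines are therefore described with no test, and p-values for the treatment support no statement about the list. The leukemias arose from blood progenitors of Zfx fl/y mice that carried a Cre-ER transgene and had received Notch-IC by retrovirus. All groups share this origin, and no source used here names the promoter that drives Cre-ER. Cells of 3 independent leukemias, lines 14843, 14844 and 14846, grew in irradiated secondary recipients. No source used here gives how many myeloid cells of the recipients' own were left. Gavage began on day 10 and lasted 3 days, with Vehicle (genotype labelled ZFX flox) or with Tamoxifen at 5 mg daily (labelled ZFX null). Sorting followed 48 h after the final gavage. There were 3 Vehicle and 3 Tamoxifen arrays, 1 of each from every line. No age of the mice is stated in the labels. Since every Tamoxifen sample carried Cre-ER and the floxed allele, drug, Cre and Zfx deletion cannot be told apart.

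Neutrophils mature in the bone marrow in stages that are marked by the granules they fill. Primary granules are filled first, with the enzymes encoded by Mpo and Elane, and secondary granules later, with lactoferrin, lipocalin and cathelicidin. The cytosol of a mature neutrophil is rich in the calcium-binding proteins encoded by S100a8 and S100a9, which form a dimer. T cells have no such granules, while Ly86 encodes MD-1, the secreted partner of the receptor CD180, which is best known from B cells and myeloid cells.

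All values are log2 of the deposited intensity and are compared within a gene, since probe sets of different genes are not on a common scale. The fit across genes took the 13956 genes with a mean of at least 6.70, the 30th percentile, and those below it are called dim. All 10 genes passed, Ly86 only through line 14846. Of 20 listed T cell genes 17 had a probe set of their own, and all 17 were above the filter, with array values between 10.53 for Cd4 and 13.49 for Thy1. Of the neutrophil receptor genes all 7 measured were dim, and of 14 monocyte and macrophage genes 6 were dim. Among these dim genes, Csf3r lay between 6.56 and 6.71, Ly6g between 6.06 and 6.61, Csf1r between 6.30 and 6.38 and Adgre1 between 5.99 and 6.12. The 8 other monocyte and macrophage genes passed the filter, among them Itgam between 8.51 and 9.89 and Cd68 between 8.47 and 8.89. The summed intensity of the monocyte and macrophage genes was 11.32 to 11.49 log2 on Vehicle arrays and 11.50 to 11.64 on Tamoxifen arrays, and that of the neutrophil receptors 8.77 to 8.84 and 8.82 to 8.94. Such sums weigh the brightest probe sets most and are compared between arrays only. Zfx itself lay between 10.72 and 10.98 on Vehicle arrays and between 10.86 and 10.98 on Tamoxifen arrays. The fit gave 0.07 ± 0.06 (SE) for Tamoxifen minus Vehicle, at an adjusted p of 0.48 by limma. No source used here places its probes relative to the deleted part of the gene, so this does not check the labels.

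The secondary granule genes among the 10 were highest in line 14844, under both treatments. Lcn2, which encodes lipocalin, a protein that withholds iron from bacteria, was at 8.49, 9.64 and 8.85 on the Vehicle arrays of lines 14843, 14844 and 14846 and at 8.50, 10.30 and 8.63 on their Tamoxifen arrays. Ngp, which encodes neutrophilic granule protein, was at 8.04, 9.62 and 8.79 with Vehicle and at 8.40, 10.37 and 8.61 with Tamoxifen, in the same order of lines. For both genes the 2 arrays of line 14844 stood above the other 4 and the Tamoxifen array of that line was the highest. Against the mean of the other lines, line 14844 was 1.95-fold higher for Lcn2 among Vehicle arrays and 3.34-fold higher among Tamoxifen arrays. For Ngp these values were 2.31-fold and 3.64-fold. In bulk samples such as these, fewer cells of a type and less RNA per cell cannot be told apart.

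Ltf and Camp had the same 2 top arrays over a smaller range. Ltf, the gene for the iron-binding protein lactoferrin, was at 7.34, 7.71 and 7.48 with Vehicle and at 7.29, 8.23 and 7.38 with Tamoxifen in lines 14843, 14844 and 14846. Camp, the gene for the antimicrobial peptide cathelicidin, was at 7.56, 7.73 and 7.51 with Vehicle and at 7.61, 8.0 and 7.54 with Tamoxifen. Both genes were again highest on the Tamoxifen array of line 14844, next highest on its Vehicle array, and spread by only 0.19 and 0.09 log2 over the other 4 arrays. All 4 secondary granule genes thus shared the 2 top arrays, and their summed intensity was 10.97 and 11.62 log2 on the Vehicle and Tamoxifen arrays of line 14844, against 9.93 to 10.31 on the others.

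The calcium-binding pair S100a8 and S100a9, which lie next to each other in the genome, also stood highest in line 14844. S100a8 was at 7.32, 8.38 and 7.63 on the Vehicle arrays of lines 14843, 14844 and 14846 and at 7.33, 8.56 and 7.53 on the Tamoxifen arrays. S100a9 was at 7.47, 8.22 and 7.67 with Vehicle and at 7.32, 8.69 and 7.37 with Tamoxifen. Within line 14844 the Tamoxifen array was higher by 0.18 for S100a8 and by 0.47 for S100a9. In lines 14843 and 14846 the S100a9 arrays overlapped, while those of S100a8 did not.

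Primary granule genes and lysozyme differed less. Mpo, the gene for myeloperoxidase, was at 7.39, 7.68 and 7.19 with Vehicle and at 7.37, 7.56 and 7.30 with Tamoxifen in lines 14843, 14844 and 14846. Elane, the gene for neutrophil elastase, was at 7.52, 7.92 and 7.39 with Vehicle and at 7.41, 7.82 and 7.54 with Tamoxifen. For these 2 genes line 14844 was again above the other lines, but its Vehicle array, not its Tamoxifen array, was the highest. Lyz2, the lysozyme gene of macrophages and neutrophils, was at 7.80, 8.69 and 8.42 with Vehicle and at 8.20, 8.75 and 8.69 with Tamoxifen. Its highest arrays were those of line 14844, with the Tamoxifen array of line 14846 level with the Vehicle array of line 14844 at 8.69. Lyz1, the neighbouring near-identical lysozyme gene, was at 8.12 and 8.24 in line 14844 and at 7.74 to 8.12 elsewhere, and probes of the 2 genes may share signal.

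**Figure D1:**
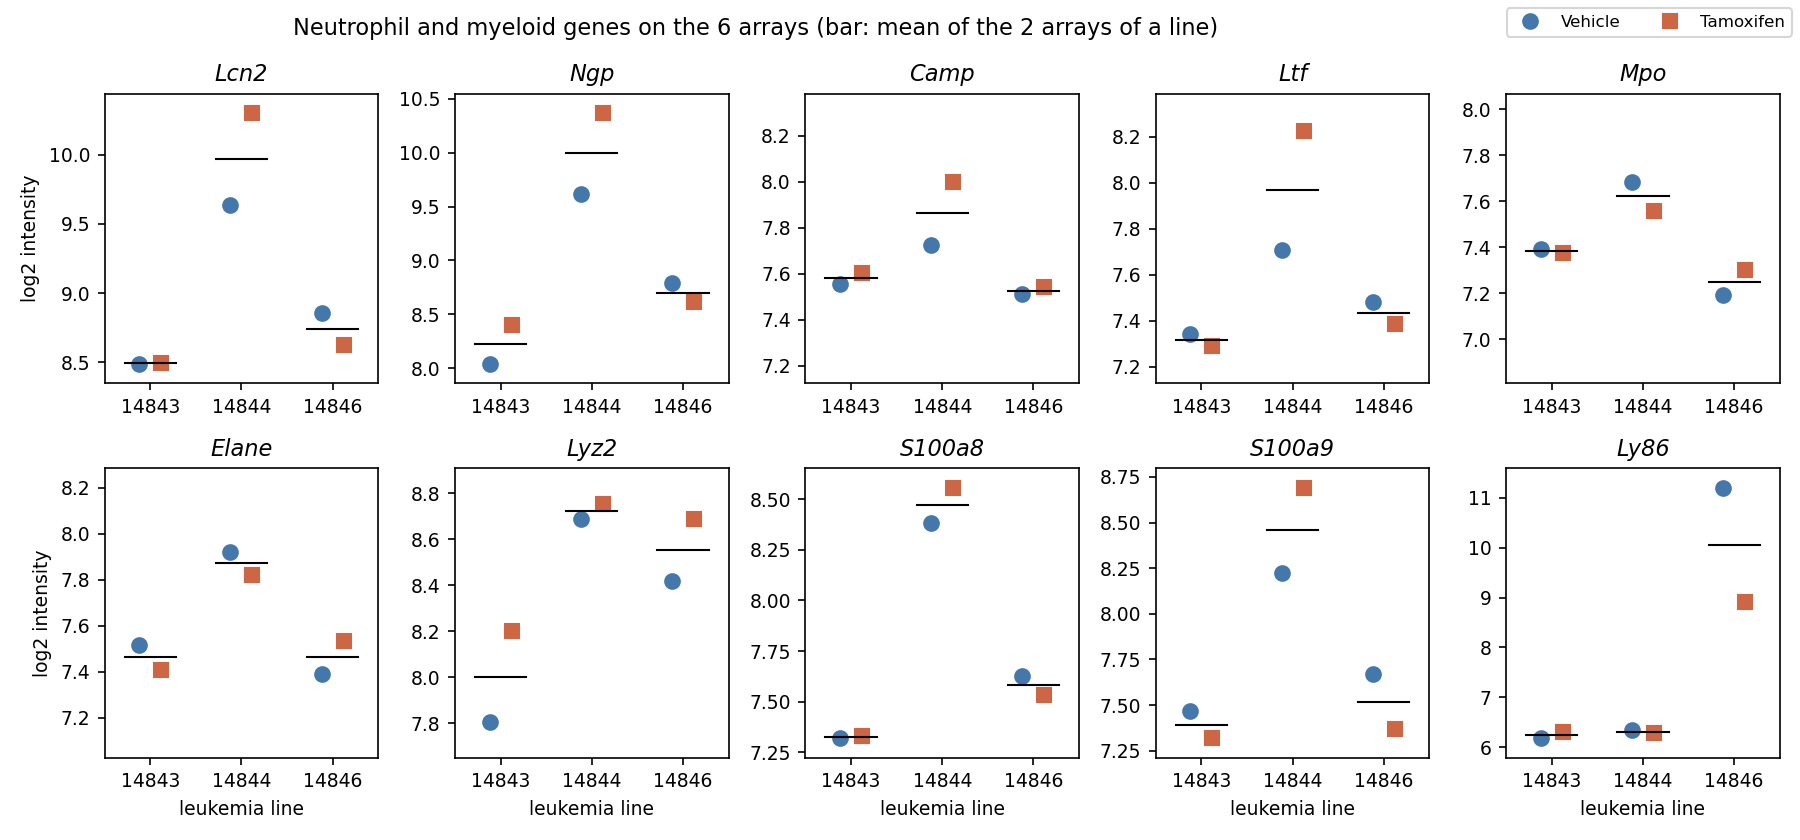
Log2 intensity (vertical axes, a separate scale for each gene) of the 10 genes by leukemia line, with 1 Vehicle array (circle) and 1 Tamoxifen array (square) per line and a bar at the mean of both. For 9 genes both arrays of line 14844 lie above the other 4, while Ly86 is high in line 14846, at 11.20 with Vehicle and 8.90 with Tamoxifen.

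In all, 9 of the 10 genes had both arrays of line 14844 above the other 4, and Ly86 had both arrays of line 14846 on top. Over all tested genes those shares were 4.36% and 10.6%. The line means of 5 genes, Lcn2, Ngp, S100a8, S100a9 and Ly86, lay 2-fold or more apart, as did those of 1.95% of tested genes. Since levels in the lines were known when the genes were chosen, these counts are a description. The distance from the lowest to the highest line mean was 1.48 for Lcn2, 1.78 for Ngp, 1.15 for S100a8 and 1.07 for S100a9, and it was between 0.34 for Camp and 0.72 for Lyz2 among the other genes high in line 14844. The median over the 10 genes was 0.89 and over all tested genes 0.14. Without line 14844 the distance fell to 0.25 for Lcn2, 0.48 for Ngp, 0.26 for S100a8 and 0.13 for S100a9, and Ly86 alone kept a 2-fold distance. Without line 14843, 3 genes kept it.

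The promoters of 5 of the 9 genes highest in line 14844 are shown with that of Ly86, which had another pattern. Camp, Mpo, Elane and Lyz2 are left out. Of these, Camp, Mpo and Elane hold 0 matches to the sequence marked below, as does Ly86. The printed promoters therefore do not compare genes with alike and unlike levels. The sequences printed are the 250 bases before each start in RefSeq, build GRCm38.p6, which held all 10 genes, written 5′ to 3′ along the gene. Capitals mark matches to TTNNGNAA on either strand, the core to which C/EBP factors bind, a family that drives granule genes in developing neutrophils. The regions are chr2:32387740-32387989 on the minus strand for Lcn2, chr9:110419558-110419807 on the plus strand for Ngp, chr9:111019042-111019291 on the plus strand for Ltf, chr3:90668821-90669070 on the plus strand for S100a8, chr3:90695722-90695971 on the minus strand for S100a9 and chr13:37345095-37345344 on the plus strand for Ly86.
Lcn2: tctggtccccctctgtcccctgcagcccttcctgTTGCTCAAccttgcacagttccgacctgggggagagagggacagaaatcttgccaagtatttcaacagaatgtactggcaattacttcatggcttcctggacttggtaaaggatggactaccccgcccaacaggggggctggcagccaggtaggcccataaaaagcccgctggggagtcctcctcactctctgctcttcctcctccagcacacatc
Ngp: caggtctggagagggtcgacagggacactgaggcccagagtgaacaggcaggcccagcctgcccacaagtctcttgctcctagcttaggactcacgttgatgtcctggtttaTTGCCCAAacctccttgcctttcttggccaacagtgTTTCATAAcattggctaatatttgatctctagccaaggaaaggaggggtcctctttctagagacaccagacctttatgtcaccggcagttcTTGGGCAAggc
Ltf: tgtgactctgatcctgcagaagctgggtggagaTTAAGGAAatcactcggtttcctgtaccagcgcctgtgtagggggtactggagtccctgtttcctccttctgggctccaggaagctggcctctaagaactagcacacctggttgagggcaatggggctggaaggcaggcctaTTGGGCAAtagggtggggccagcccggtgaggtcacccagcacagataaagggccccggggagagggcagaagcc
S100a8: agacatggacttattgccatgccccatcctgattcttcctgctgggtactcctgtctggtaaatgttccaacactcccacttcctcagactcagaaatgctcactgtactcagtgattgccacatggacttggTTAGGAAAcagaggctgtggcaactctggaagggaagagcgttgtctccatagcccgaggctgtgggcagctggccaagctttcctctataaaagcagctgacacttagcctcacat
S100a9: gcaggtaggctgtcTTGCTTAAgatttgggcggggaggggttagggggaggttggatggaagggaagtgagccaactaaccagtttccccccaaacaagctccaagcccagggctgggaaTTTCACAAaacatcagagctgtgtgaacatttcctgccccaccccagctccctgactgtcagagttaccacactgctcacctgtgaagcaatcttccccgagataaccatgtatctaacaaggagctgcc
Ly86: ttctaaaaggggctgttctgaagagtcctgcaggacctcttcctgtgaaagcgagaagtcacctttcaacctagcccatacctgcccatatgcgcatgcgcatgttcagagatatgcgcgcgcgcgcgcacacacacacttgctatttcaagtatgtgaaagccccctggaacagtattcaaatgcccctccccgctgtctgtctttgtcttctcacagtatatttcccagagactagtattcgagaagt

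Ngp held 3 matches in this window, Ltf and S100a9 2 each, Lcn2, S100a8 and Lyz2 1 each, and Camp, Mpo, Elane and Ly86 0. Thus 6 of the 10 windows held the core, against 36.9% of 32841 mouse promoter windows of the same length. The hexamer GAGGAA, a core bound by the myeloid factor PU.1, was found on either strand in 5 of the 10, namely Lcn2, Ltf, Mpo, Elane and S100a8, and in 23.3% of all windows. The 2 motifs can overlap. A match is a description of letters and not a bound site.

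No gene of the 10 passed the test of Tamoxifen against Vehicle. By limma with line as a block, 0 of 10 had an adjusted p under 0.05, against 6.23% of tested genes, and 1, Lyz2, had an unadjusted p under 0.05. Lyz2 was higher on the Tamoxifen array of each line, by 0.40, 0.07 and 0.27 in lines 14843, 14844 and 14846, and fitted at 0.24 ± 0.08 (SE), adjusted p 0.13 by limma. Camp was also higher in each line, by 0.05, 0.27 and 0.03, with a fitted difference of 0.12 ± 0.07 and an adjusted p of 0.35. These 2 of the 10 were higher with Tamoxifen in all 3 lines, as were 28.6% of tested genes. The groups overlapped for all 10 genes, while they did not for 23.7% of tested genes.

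For the other granule and S100 genes the sign of the difference depended on the line. Ngp differed by 0.36, 0.75 and -0.18 in lines 14843, 14844 and 14846, with a fit of 0.31 and a 95% interval from -0.12 to 0.74. Lcn2 differed by 0.01, 0.66 and -0.23, with a fit of 0.15 and an interval from -0.27 to 0.57. Ltf differed by -0.05, 0.52 and -0.10 and S100a9 by -0.15, 0.47 and -0.30, with fits of 0.12 and 0.01. Line 14844 thus gave the highest difference for each of these 4 genes, and line 14846 the lowest. S100a8 had the same order at 0.01, 0.18 and -0.10. Without line 14844 the fitted difference turned negative for Lcn2, at -0.11, for Ltf, at -0.08, for S100a8, at -0.04, and for S100a9, at -0.23, and it was 0.09 for Ngp and 0.04 for Camp.

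Primary granule genes gave another order. Mpo differed by -0.02, -0.13 and 0.11 and Elane by -0.11, -0.10 and 0.14 in lines 14843, 14844 and 14846. Their fits of -0.01 ± 0.06 and -0.02 ± 0.07 (SE) had adjusted p-values by limma of 0.93 and 0.88. The 95% intervals ran from -0.17 to 0.15 for Mpo and from -0.20 to 0.15 for Elane. Over the 10 genes, 6, 7 and 4 were higher on the Tamoxifen array of lines 14843, 14844 and 14846, against 54.5%, 56.6% and 55.3% of tested genes. The median fitted difference was 0.07 over the 10 genes and 0.03 over all tested genes.

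**Figure D2:**
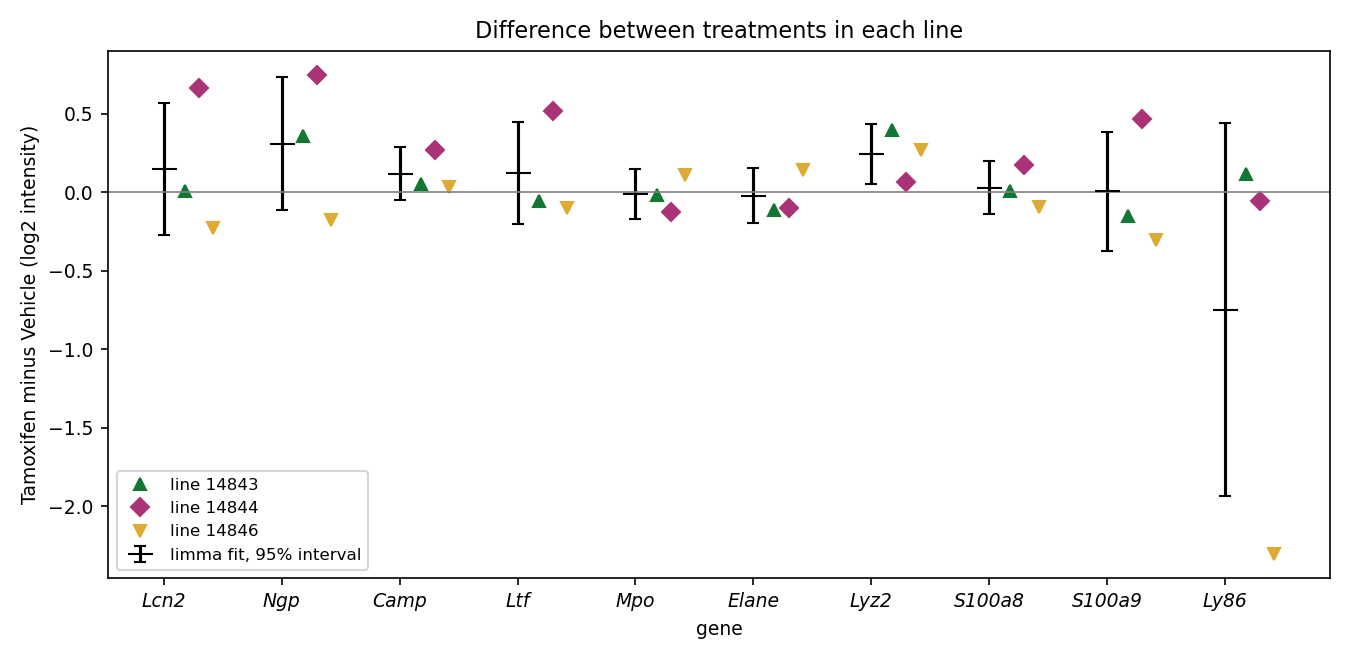
Tamoxifen minus Vehicle in log2 intensity (vertical axis) for each gene (horizontal axis), as the limma fit with its 95% interval (black) and as the difference within each line (coloured symbols, 1 pair of arrays each). Line 14844 lies highest for Lcn2, Ngp, Ltf and S100a9, and Ly86 in line 14846 lies lowest, at -2.30.

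Other neutrophil genes were often highest on the Tamoxifen array of line 14844, but fewer of them had both arrays of that line on top. Of 32 listed granule and receptor genes besides the 10, 28 had a probe set of their own, and 16 of these were dim. The brighter ones include Nkg7, a gene of cytotoxic lymphocytes rather than of neutrophils. The Tamoxifen array of line 14844 was the highest of the 6 for 19 of the 28, against 13.8% of all 19938 genes. It was so for 12 of the 16 dim and 7 of the 12 brighter ones. It was also so for 9 of the 67 other genes listed as markers or regulators of myeloid and other blood cells, T cell genes not counted. Both arrays of line 14844 stood above the other 4 for 9 of the 28, 3 of them among the 12 brighter ones, against 4.64% of all genes and 2 of the 67. This count was made after the values of the arrays had been seen.

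Among these genes Cybb, the catalytic subunit of the phagocyte oxidase, was at 6.52, 6.94 and 6.71 with Vehicle and at 6.55, 7.33 and 6.73 with Tamoxifen in lines 14843, 14844 and 14846. Chil3, which encodes a chitinase-like protein of neutrophil granules and macrophages, was dim at 5.69 to 5.97 on 5 arrays and at 6.57 on the Tamoxifen array of line 14844. Ly6g, whose product is the Gr-1 surface antigen of neutrophils, was at 6.61 on that array and at 6.06 to 6.28 on the others, and Retnlg, a gene of mature neutrophils, was at 6.24 against 5.76 to 5.87. On that array each stood above its other arrays by less than 1 log2 unit. Chil3, Ly6g and Retnlg are examples from the 12 of 16 dim genes that were highest there. The remaining dim genes went another way. Trem1 at 5.75, Clec4e at 5.70 and Bpi at 6.19 were highest on the Tamoxifen array of line 14843, and Clec4d at 5.99 on its Vehicle array. On the Tamoxifen array of line 14844 they were at 5.70, 5.59, 6.02 and 5.90. The part that neutrophils among the sorted cells had in the levels of line 14844 was not tested.

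By limma, 0 of the 12 tested granule genes changed with treatment, and with the moderated F test 1 differed between lines, Nkg7. Nkg7 encodes a granule protein of cytotoxic lymphocytes rather than of neutrophils, and it was high in line 14846. Its adjusted p was 0.039, and the call ended with no filter on dim genes, at 0.059, with the trend and robust settings of eBayes, at 0.067, and without line 14846, at 0.89. Of the other primary granule genes, Prss57, a serine protease of neutrophil granules, was at 9.61, 10.44 and 10.77 with Vehicle and at 9.07, 10.07 and 9.74 with Tamoxifen. Its difference was -0.64 ± 0.13 (SE), just short of the threshold at an adjusted p of 0.051 by limma. It did not share the order of arrays of Mpo or Elane. Prtn3 and Ctsg, further primary granule proteases, had both arrays of line 14844 on top, as Mpo and Elane did, with line means 0.20 and 0.21 apart. Prtn3 was at 7.42 and 7.38 in that line and at 7.09 to 7.34 elsewhere, and Ctsg at 6.82 and 6.94 against 6.65 to 6.76. In the myeloid transcription factors, 0 of 6 tested changed or differed between lines. Cebpe, which late granule genes need, stayed between 7.61 and 7.81, and Gfi1, which T cell progenitors also express, gave -0.27 ± 0.06 with an adjusted p of 0.064.

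**Figure D3:**
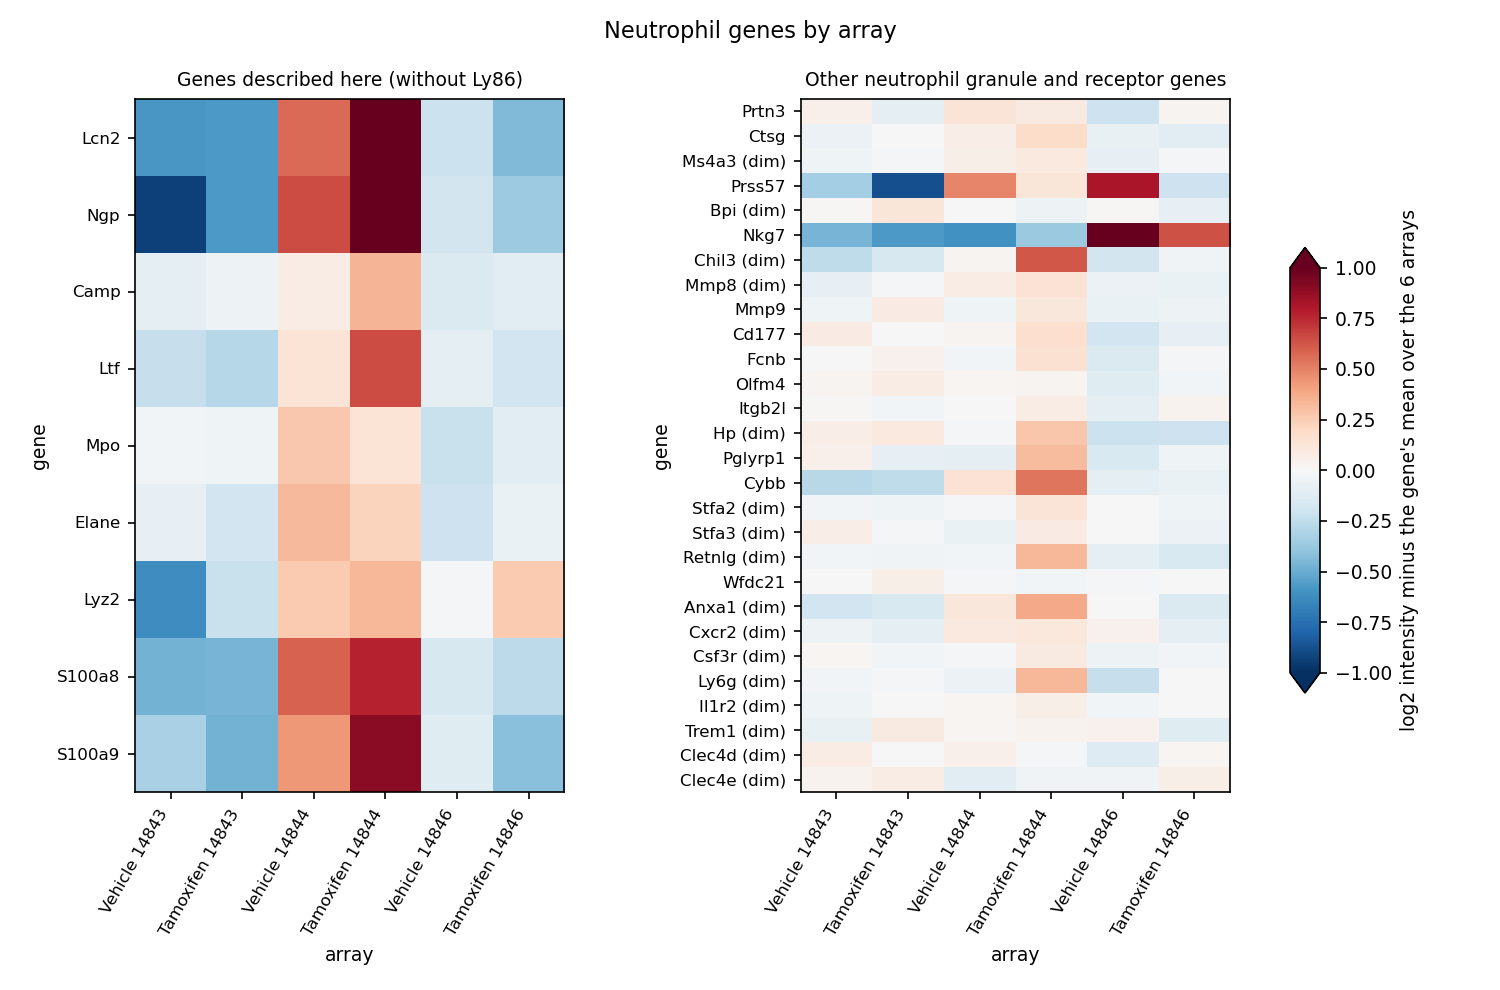
Log2 intensity minus each gene's mean over the 6 arrays (colour), with genes in rows and arrays in columns. On the left are 9 of the genes described here, on the right 28 other granule and receptor genes (dim ones marked). The 28 include Nkg7, a gene of cytotoxic lymphocytes. The Tamoxifen array of line 14844 is the highest for 19 of the 28, mostly by small amounts, while Prss57 and Nkg7 have other patterns.

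The genes with the levels most like those of the neutrophil genes were partly the neutrophil genes themselves. Likeness was Pearson's r of log2 intensity over the 6 arrays, among 723 other tested genes with a range of at least 1 log2. It rests on the arrays of line 14844, which stand apart, and the 6 arrays share 3 lines. For Lcn2 the 5 nearest were S100a9 (r = 0.99), Ngp (0.99), S100a8 (0.98), Hecw2 (0.97) and Pvt1 (0.97). For Ngp they were Lcn2 (0.99), Hecw2 (0.98), Ccdc90b (0.98), S100a8 (0.98) and S100a9 (0.96). For S100a8 they were Hecw2, Ccdc90b, Lcn2, Myrfl and Ngp, each at r = 0.98, and for S100a9 Lcn2, Pvt1, Tapbp, S100a8 and Ngp, at r between 0.96 and 0.99. Hecw2, a ubiquitin ligase gene, was at 9.59 and 10.24 in line 14844 and at 7.54 to 8.42 elsewhere. Tapbp, the gene for tapasin, which loads peptides on MHC class I, was at 12.32 and 12.43 against 10.46 to 11.17. Hecw2 and Tapbp are not neutrophil markers. Their high level in line 14844 follows from their choice by likeness to genes that are high there.

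Ly86 had a pattern of its own. It was at 6.18, 6.34 and 11.20 on the Vehicle arrays of lines 14843, 14844 and 14846 and at 6.30, 6.28 and 8.90 on the Tamoxifen arrays. In lines 14843 and 14844 all 4 arrays were below the filter on dim genes, so that no fold is given against them. On the linear scale the intensity of line 14846 was 2360 with Vehicle and 479 with Tamoxifen, against 72.3 to 80.8 on the other arrays. The difference between treatments was 0.12, -0.06 and -2.30 in lines 14843, 14844 and 14846. The fit gave -0.75 ± 0.47 (SE), at an adjusted p of 0.39 by limma. Its 95% interval ran from -1.93 to 0.44, and the value rests on 1 line. With 1 array per line and treatment, the drop within line 14846 has no replicate.

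Of the partners of Ly86 and TLR4, 1 of 4 tested had both arrays of line 14846 on top, namely Myd88, against 10.6% of all tested genes. The 3 others measured were dim. Cd180, the receptor that MD-1 binds, was dim on all arrays, between 5.86 and 6.0. Tlr4, which signals with the related protein MD-2, was dim between 5.45 and 5.61, and so was its co-receptor Cd14 between 6.10 and 6.27. Ly96, the gene for MD-2, was at 10.50, 10.36 and 10.37 with Vehicle and at 10.76, 10.86 and 11.08 with Tamoxifen in lines 14843, 14844 and 14846. All 3 Tamoxifen arrays of Ly96 were above the Vehicle arrays, and it rose by 0.49 ± 0.09 (SE), at an adjusted p of 0.043 by limma. It was 1 of 4 tested genes among the partners of Ly86 and TLR4 to change, with 1 higher and 0 lower, against 6.23% of all tested genes. A list of 4 is too short to read this as a trait of the partners. The call ended without the block, at an adjusted p of 0.062, with no filter on dim genes, at 0.056, and without line 14844 or 14846, at 0.20 and 0.072. Myd88, the adaptor of TLR signalling, was at 11.04 and 11.09 in line 14846 and at 10.49 to 11.00 elsewhere, without a call between lines at a moderated F adjusted p of 0.28. Its difference between treatments was 0.25 ± 0.10, and that of Tlr2, a receptor of the same pathway, 0.22 ± 0.09, with adjusted p-values of 0.19 and 0.22.

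The 5 genes most like Ly86 were Cdh23, Ifitm2, Gadd45b, Nkg7 and Spib, at r between 0.989 and 0.996 over the 6 arrays. The correlations rest on the 2 arrays of line 14846. Cdh23, a cadherin gene, was at 9.55 and 8.26 on the Vehicle and Tamoxifen arrays of line 14846 and at 6.90 to 7.16 elsewhere. Ifitm2, an interferon-inducible membrane protein, was at 9.72 and 8.93 against 7.88 to 8.07, and Gadd45b, a stress response gene, at 9.04 and 8.40 against 7.39 to 7.58. Nkg7 was at 9.05 and 8.30 against 7.06 to 7.30. Spib, a transcription factor of B cells and plasmacytoid dendritic cells, was at 8.33 and 7.92 against 7.19 to 7.35. Each of these genes, like Ly86, was higher with Vehicle than with Tamoxifen in line 14846. This order follows from their choice by likeness to Ly86 over the same arrays, and it does not replicate the drop of Ly86.

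**Figure D4:**
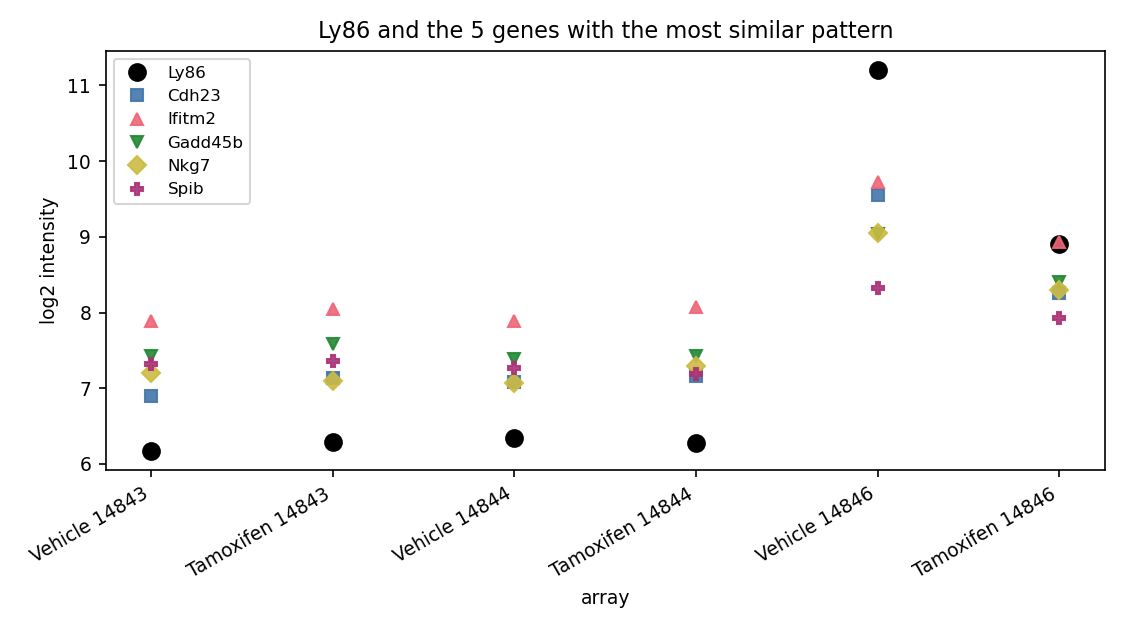
Log2 intensity (vertical axis) of Ly86 and the 5 genes with the highest Pearson correlation with it, on each of the 6 arrays (horizontal axis). All 6 genes are high on both arrays of line 14846 and higher on its Vehicle array, where Ly86 is at 11.20, than on its Tamoxifen array.

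Antigen presentation and B cell genes in line 14846 were read beside Ly86. Of 6 tested MHC class II genes, 2 differed between lines by limma's moderated F test, against 3.11% of tested genes. The list was chosen with earlier results of these data known, so this count is a description. H2-Aa, a class II alpha chain, was at 8.19 and 7.80 on the Vehicle and Tamoxifen arrays of line 14846 and at 6.68 to 7.06 elsewhere. Cd74, the invariant chain, was at 8.28 and 8.09 against 7.20 to 7.55. H2-Eb1 also had both arrays of line 14846 on top, at 8.63 each against 8.35 to 8.48, and the other 3 did not. H2-Ab1, a class II beta chain, was at 7.64 and 7.72 in line 14846 and at 8.18 and 7.85 in line 14844. H2-DMa was at 10.55 with Vehicle in line 14846, the highest of its arrays, but at 10.15 with Tamoxifen. The Tamoxifen arrays of lines 14844 and 14843 were above that, at 10.16 and 10.38. Ciita, which drives class II genes, stayed between 7.14 and 7.29. The adjusted p-values of H2-Aa and Cd74 were 0.019 and 0.017, and without line 14846 they were 0.33 and 0.24. Of 4 tested B cell markers 0 differed between lines. Cd79b was at 9.56 on the Vehicle array of line 14846 and at 8.01 to 8.66 on the others, while Cd79a and Ms4a1 were dim on all arrays, between 5.78 and 6.14 and between 5.56 and 5.70. The B cell list summed to 9.77, 9.78 and 10.41 log2 on the Vehicle arrays of lines 14843, 14844 and 14846 and to 9.99, 9.84 and 9.96 on their Tamoxifen arrays. The part of other cells in the level of Ly86 was not tested.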

How the data were processed

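RNA of 6 samples of sorted leukemia cells was measured on 6 one-colour arrays. The table the authors deposited holds intensities per probe set, not logged. Affymetrix Expression Console 1.1 with RMA made them, as the submitters' processing notes say. RMA equalises the distribution of intensities across arrays, so it removes differences in overall signal. Medians were 202 to 208. The genome build is not given in the sources used here. Arrays have no read depth, and their number limits the precision.

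The platform annotation gave 1 symbol for 21789 of 35556 probe sets, several for 1621 and none for 12146. Only the first were used, with the highest mean probe set per gene. The log2 of each intensity was fitted with limma 3.58.1 in R 4.3.3 (lmFit, eBayes) on treatment and line, over genes at or above the 30th percentile, with Benjamini-Hochberg adjustment over all of them. Line was a block because both treatments were given to recipients of every line. Deviations from group means correlated at 0.64 to 0.68 within lines. The F test of the line terms compared lines for genes outside the 10. P-values for the treatment rest on how the difference within a line varied among the 3 leukemias, with variances moderated across genes. The F test sets lines against that same residual spread, with 1 array per line and treatment. The fit was tested on simulated data.

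The 10 genes and the further lists (139 genes in 16 lists, 80 tested) were chosen with earlier results of these data known. Counts of calls within a list are therefore descriptions. Named genes were the 10, genes of the other lists that were called or had the largest distance between lines, and the 5 genes most like a gene whose lines lay 2-fold apart. Further genes are named as examples chosen after their values were seen. Alternatives were no block, no filter or the 50th percentile, centred arrays, the mean over probe sets, eBayes with trend and robust settings, an offset of 16, Vehicle or Tamoxifen arrays alone, and each line left out.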

Additional observations from a re-analysis of the deposited data

Results flagged for a closer look

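For 8 of the 10 genes the difference between Tamoxifen and Vehicle had opposite signs in different lines. With 1 pair of arrays per line these differences between lines were not tested. The share of all tested genes with opposite signs was not counted, but only 28.6% were higher with Tamoxifen in all 3 lines. The count of 8 is thus no trait of the 10 genes. The highest line minus the lowest was 2.42 log2 for Ly86, 0.93 for Ngp, 0.89 for Lcn2, 0.77 for S100a9 and 0.62 for Ltf. It was 0.27 for S100a8, 0.25 for Elane and 0.24 for Mpo. Line 14846 was the lowest for Ly86, Ngp, Lcn2, S100a9, Ltf and S100a8, and the highest for Mpo and Elane. Camp and Lyz2 were higher with Tamoxifen in each line.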

How the results depend on the processing

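None of the 10 genes passed the treatment test under any alternative that could be fitted: over 92 values the smallest limma adjusted p was 0.055, for Ngp without line 14846. The sign turned in 8 of the 92: for Lcn2, Ltf, S100a8, S100a9, Mpo and Elane without line 14844, for Elane without line 14843 (0.023), and for S100a9 with centred arrays (-0.023). With 1 line left out the differences ran from -0.109 to 0.337 for Lcn2, -0.076 to 0.232 for Ltf, -0.043 to 0.093 for S100a8, -0.226 to 0.159 for S100a9, -0.072 to 0.046 for Mpo, -0.104 to 0.023 for Elane, 0.0914 to 0.555 for Ngp, 0.0414 to 0.160 for Camp, 0.169 to 0.333 for Lyz2 and -1.18 to -1.09 for Ly86. Ly86 and 6 others of the 10 (not Lcn2, Ngp or Lyz2) fell below the filter at the 50th percentile, Ly86 also without line 14846, and gave no value there. Over all tested genes 870 changed, 295 without the replicate block, and 83 to 671 with 1 line left out, fewest without line 14844. Of the other listed genes, with the T cell list not counted, 2 changed. This was 0 without the block, 1 without a filter, 4 with centred arrays and 1 to 3 with 1 line left out. Between lines 434 genes differed, and 197 to 455 with 1 line left out, fewest without line 14844. Of the other listed genes, again without the T cell list, 4 differed, 2 with the filter at the 50th percentile and 2 to 5 with 1 line left out. Gata3 of the T cell list also differed, and its call was not followed under the alternatives. Of the 10 genes 5 had lines 2-fold apart, and 1 to 4 with 1 line left out. The fits with 1 line left out had fewer samples; the cause of the other changes was not tested. Signal over background is not given on these arrays, so whether a dim gene is expressed cannot be read from them.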

Other observations

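Markers of other blood cells held 2 further calls. Il5ra, the interleukin 5 receptor chain of eosinophils and some B cells, fell on the Tamoxifen arrays, from 10.45, 9.61 and 9.37 with Vehicle to 9.14, 8.87 and 8.24 in lines 14843, 14844 and 14846. The fit gave -1.06 ± 0.11 (SE), at an adjusted p of 0.011 by limma. The call held with any line left out but not without the block, where the adjusted p was 0.20. The 6 other eosinophil, basophil and mast cell markers, among them Epx, Prg2 and Mcpt8, were dim on all arrays. Itgam, the integrin chain CD11b of myeloid cells, was highest in line 14843, at 9.61 and 9.89 on its Vehicle and Tamoxifen arrays against 8.51 to 9.04 elsewhere. It differed between lines at a moderated F adjusted p of 0.020, and without line 14843 at 0.99. Itgam thus had another order of lines than the 9 of the 10 genes that were highest in line 14844. Of 8 tested monocyte and macrophage markers 0 changed with treatment, and Ctss, a lysosomal protease, gave 0.63 ± 0.23 with an adjusted p of 0.18. None of 5 tested dendritic cell, 5 erythroid and 2 platelet markers changed with treatment or differed between lines by limma. Among the tested genes the largest distance between line means in each of these lists was 0.23 for Xcr1, 0.20 for Ermap and 0.19 for Gp9. Of the 17 T cell genes 0 changed with treatment and 1, Gata3, differed between lines, against 3.11% of tested genes. Its moderated F adjusted p was 0.025. Gata3 was at 12.14 and 12.27 on the Vehicle and Tamoxifen arrays of line 14844 and at 11.46 to 11.81 elsewhere, so a T cell gene also had both arrays of that line on top.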
